A study of Mus musculus with 12 samples.

Results

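The genes described here are 10 components of the circadian clock, Arntl, Clock, Per1, Per2, Per3, Cry1, Cry2, Dbp, Nr1d1 and Nr1d2, taken from the files by gene symbol. All 10 were found among the 17972 genes counted in all 12 RNA-Seq libraries, and all 10 passed the filter on low counts in every comparison. The libraries came from murine jejunal enteroids, which are epithelial organoids grown from intestinal crypts, kept for 5 days in ENR medium (EGF, Noggin and R-spondin). Of the 12 libraries, 4 came from control enteroids, 4 from Hdac1-deficient enteroids (floxed Hdac1 with villin-Cre) and 4 from Hdac2-deficient enteroids (floxed Hdac2 with villin-Cre). The paper's results name the controls villin-Cre control and its methods name them wild-type, so whether the controls carry Cre is not certain. The villin promoter drives Cre in intestinal epithelial cells, and the mice were of mixed C57BL/6J, 129SV and CD1 background. The methods name 1 mouse of each genotype as the source of crypts, so nothing shows that the 4 libraries of a group are 4 animals, p-values measure the spread between these libraries, and genotype cannot be told apart from the mouse or the line grown from it. Neither the labels nor the methods give the clock time at which the cultures were lysed, nor any step that would synchronise their clocks.

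The circadian clock is a transcriptional feedback loop. ARNTL (also called BMAL1) pairs with CLOCK and activates genes through a sequence called the E-box, among them the Per and Cry genes, whose proteins return to the nucleus and repress ARNTL and CLOCK. The same pair activates Nr1d1 and Nr1d2, which encode the nuclear receptors REV-ERB alpha and beta. These repress Arntl through ROR response elements, with the NCoR corepressor and the deacetylase HDAC3. Dbp is a direct E-box target of the loop and encodes a factor that acts on D-box sequences. In rodent tissues, transcripts of Dbp, Nr1d1 and the Per genes peak at times of day when Arntl is low, and in the small intestine sugar and peptide transporters follow daily rhythms.

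Of the 10 genes, 9 had at least 1 promoter window in the RefSeq promoter table (GRCm38.p6, 300 bases reaching from 250 before a start to 50 after it, both strands read, 13 windows in all), and Per2 had none. The E-box CACGTG lay in a window of 2 of the genes, Per1 and Cry1, against 8.09% of the 27025 genes in the table (7.15% of all 32851 windows). The ROR response element, read as TAGGTCA or TGGGTCA, lay in a window of Arntl alone, against 7.35% of genes (6.45% of windows). The D-box TTANGTAA lay in the window of Per3 alone, 2 times, against 2.72% of genes (2.32% of windows), and the cAMP element TGACGTCA lay in none of the 9 genes, against 2.03% (1.79% of windows). A match is a description of letters and not of a bound site, and no match says only that these letters are not in this window. The stretches with a match are shown because they carry the elements by which the clock factors above act, with the motif in capitals and each written 5′ to 3′ along its gene. The Arntl match lies in an annotated exon, 30 bases after a RefSeq start (chr7:113207531-113207557, plus strand). The Per1 match begins 166 bases before a start (chr11:69098757-69098814, plus strand) and the Cry1 match 60 bases before it (chr10:85185083-85185140, minus strand). The Per3 matches begin 205 and 158 bases before its start (chr4:151044666-151044915, minus strand, the whole stretch before the start).
Arntl: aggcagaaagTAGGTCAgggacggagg
Per1: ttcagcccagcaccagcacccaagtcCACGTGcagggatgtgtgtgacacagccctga
Cry1: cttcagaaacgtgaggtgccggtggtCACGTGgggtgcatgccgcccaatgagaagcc
Per3: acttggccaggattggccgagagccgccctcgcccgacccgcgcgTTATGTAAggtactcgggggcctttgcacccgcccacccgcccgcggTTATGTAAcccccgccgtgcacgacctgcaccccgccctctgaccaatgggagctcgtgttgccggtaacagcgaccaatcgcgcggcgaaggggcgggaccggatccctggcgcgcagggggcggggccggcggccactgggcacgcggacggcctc
Dbp and Nr1d1, the 2 genes that fell most in Hdac1-deficient enteroids, held none of the 4 motifs in their windows. Their stretches before the start that lie outside annotated exons are given for comparison (chr7:45704997-45705087, plus strand, and chr11:98775378-98775627, minus strand).
Dbp: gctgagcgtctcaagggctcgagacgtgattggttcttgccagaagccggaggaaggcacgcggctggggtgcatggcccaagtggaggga
Nr1d1: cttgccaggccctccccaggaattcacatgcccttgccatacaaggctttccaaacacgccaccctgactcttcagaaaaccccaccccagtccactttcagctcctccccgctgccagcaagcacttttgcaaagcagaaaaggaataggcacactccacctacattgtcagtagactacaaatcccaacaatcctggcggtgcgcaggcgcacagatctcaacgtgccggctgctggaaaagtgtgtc

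Between 20693200 and 30658628 reads were counted on genes per library, and levels are given as CPM (counts scaled to the size of the library, with TMM factors). Hdac1 was lowest in the Hdac1-deficient libraries, at 4.23 CPM against 90.6 CPM in control. Hdac2 was lowest in the Hdac2-deficient libraries, at 75.9 CPM against 137.0 CPM, so that more than traces of Hdac2 transcript were still counted. Counts per gene do not show which exons the reads came from. The paper reports that RT-PCR, Western blot and immunofluorescence showed the deletion of either gene in its enteroids. All 6 epithelial markers (Epcam, Cdh1, Vil1, Krt8, Krt18 and Cdx2) were counted in every library, whereas 8 of 17 markers of fibroblast, immune, endothelial, muscle and neural cells were listed at all and summed to 2.079 to 2.504 CPM in control libraries and to at most 4.85 CPM in any library. The 5 enterocyte markers summed to 5073 to 5832 CPM in the control libraries, 9875 to 10740 CPM when Hdac1 was deficient and 7695 to 8746 CPM when Hdac2 was deficient. The 4 stem cell markers summed to 3354 to 3557, 1841 to 2160 and 1528 to 1712 CPM in the same order. The 3 Paneth cell markers summed to 1312 to 1532, 2386 to 2566 and 2442 to 2569 CPM, and the 4 goblet cell markers to 1324 to 1587, 1322 to 1412 and 2117 to 2370 CPM. The goblet markers did not move together in Hdac1-deficient enteroids. Against control, mean Clca1 rose from 69.2 to 159.2 CPM and Muc2 from 42.2 to 83.0 CPM, while Tff3 fell from 419.1 to 314.4 CPM. Fcgbp, the largest part of the sum, went from 946.9 to 810.2 CPM and did not pass the test (edgeR adjusted p = 0.057). The 3 tuft cell markers were low throughout, at 4.96 to 5.59, 4.39 to 6.51 and 2.95 to 3.63 CPM. The 3 enteroendocrine markers lay at 204.0 to 216.7, 213.7 to 236.9 and 230.3 to 249.4 CPM. Other lists were mixed too. In Hdac1-deficient enteroids Lyz1 and Itln1 rose and Mmp7 did not pass (edgeR adjusted p = 0.4). In Hdac2-deficient enteroids Chga fell, Chgb rose (log2 fold changes -0.18 and 0.28, edgeR adjusted p = 0.0013 and 4.8e-07) and Neurod1 did not pass. Most of these sums moved with genotype, and their part in the results given here was not tested. In bulk RNA, fewer cells of a type and less RNA per cell cannot be told apart.

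In Hdac1-deficient enteroids, Arntl, Clock and Cry2 rose and Per1, Per2, Per3, Dbp, Nr1d1 and Nr1d2 fell against control, leaving Cry1 as the gene that did not pass the test (edgeR, adjusted p of at most 0.05). That is 3 of 10 genes higher, where 32.7% of the 14246 genes tested were called higher, and 6 of 10 lower, where 31.9% were called lower. Changes of more than 2-fold were called for 1 gene that rose, Arntl (6.87% of all genes tested), and for 2 that fell, Dbp and Nr1d1 (3.71% of all genes tested). The 4 Hdac1-deficient and 4 control libraries did not overlap for 9 of the 10 genes, Cry1 being the exception, against 58.3% of all genes tested. The median absolute log2 fold change was 0.45 over the 10 genes and 0.25 over all genes tested.

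In Hdac2-deficient enteroids, Arntl and Clock rose and Per1, Per2, Per3, Cry1, Dbp and Nr1d2 fell against the same 4 control libraries, while Cry2 and Nr1d1 did not pass the test. That is 2 of 10 genes higher and 6 of 10 lower, where 31.4% and 30.9% of the 14007 genes tested were called in these directions. By edgeR 0 genes changed by more than 2-fold in either direction, and the count was 0 also at an unadjusted p under 0.05 and by DESeq2, whereas 5.45% of all genes tested were called more than 2-fold higher and 2.84% more than 2-fold lower. Libraries of the 2 groups did not overlap for 5 of the 10 genes, Arntl, Per1, Cry1, Dbp and Nr1d2, which is close to the 56% of all genes tested. The median absolute log2 fold change was 0.18 over the 10 genes, below the 0.23 of all genes tested.

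The difference between the mutants was tested directly in a fit of all 12 libraries. All 10 genes passed that test. Arntl, Clock, Cry1 and Cry2 were higher in the Hdac1-deficient group (4 of 10, against 22.3% of the 14510 genes tested) and the other 6 were lower (6 of 10, against 23.7%). By edgeR 0 genes differed by more than 2-fold, as also at an unadjusted p under 0.05 and by DESeq2 (2.74% of all genes tested were called more than 2-fold higher and 2.89% more than 2-fold lower). Libraries of the 2 mutants did not overlap for 9 genes, all except Per2, against 41.8% of all genes tested. The median absolute log2 difference was 0.33 over the 10 genes and 0.16 over all genes tested. Per1, Per2 and Cry1 held the smallest differences from zero relative to their error in this test, and their calls are followed gene by gene below.

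**Figure D1:**
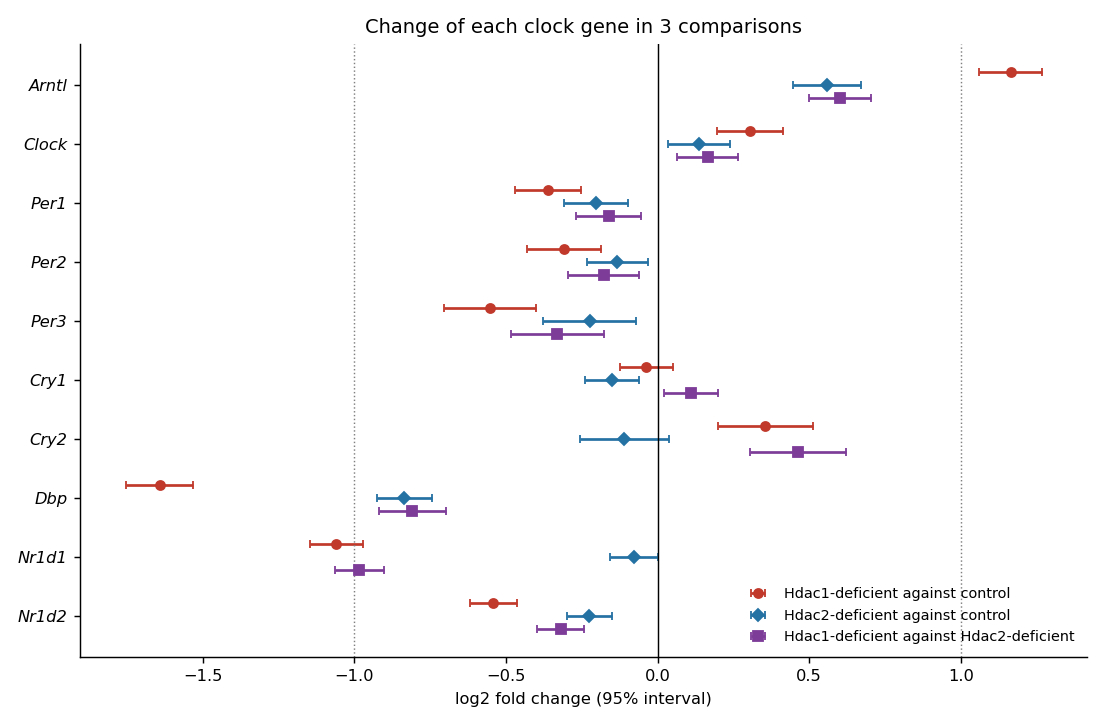
Log2 fold change of each of the 10 clock genes (x axis, with 95% interval) in Hdac1-deficient against control, Hdac2-deficient against control and Hdac1-deficient against Hdac2-deficient enteroids. Dotted lines mark a 2-fold change, which Arntl (1.16), Dbp (-1.64) and Nr1d1 (-1.06) passed in the Hdac1 comparison, and the Nr1d1 interval of the Hdac2 comparison reaches 0.

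Arntl encodes the partner of CLOCK without which the loop stops (ENSMUSG00000055116, GRCm38 chromosome 7, 113207465 to 113314126, plus strand). It was counted at 14.3, 14.5, 14.03 and 14.4 CPM in the 4 control libraries, at 33.8, 30.4, 30.8 and 32.1 CPM in Hdac1-deficient libraries and at 22.6, 19.5, 20.5 and 20.95 CPM in Hdac2-deficient libraries. The 3 groups did not overlap, and the Hdac2-deficient libraries lay between the other two groups. The coefficient of variation of the control libraries was 1.49%, the smallest of any of the 10 genes in any group. Their counts were 345 to 427, for which counting error alone gives a larger expected spread. Arntl rose 2.24-fold in Hdac1-deficient enteroids (log2 fold change 1.16, standard error 0.05, edgeR adjusted p = 1.7e-13) and 1.47-fold in Hdac2-deficient enteroids (log2 fold change 0.56, standard error 0.06, edgeR adjusted p = 3.3e-08). It was 1.52-fold higher when Hdac1 was deficient than when Hdac2 was deficient (edgeR adjusted p = 3.3e-10). Of all genes tested, 8.28% changed by a larger factor, up or down, than Arntl did when Hdac1 was deficient and 19.9% when Hdac2 was deficient.

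Clock, the DNA-binding partner of ARNTL (ENSMUSG00000029238, chromosome 5, 76209868 to 76304792, minus strand), changed less. Its level was 80.4 to 98.3 CPM in control libraries, 103.5 to 117.2 CPM in Hdac1-deficient and 95.7 to 102.5 CPM in Hdac2-deficient libraries. Hdac1-deficient libraries lay above all others, while Hdac2-deficient libraries overlapped the control range. Clock rose by 0.30 ± 0.06 on the log2 scale (SE) in Hdac1-deficient enteroids (edgeR adjusted p = 0.00018), and by 0.14 ± 0.05 in Hdac2-deficient enteroids (edgeR adjusted p = 0.032). Hdac1-deficient enteroids were higher than Hdac2-deficient ones by 0.17 ± 0.05 (edgeR adjusted p = 0.012). The call in Hdac2-deficient enteroids was lost without control library 1, control library 4, Hdac2-deficient library 1 or Hdac2-deficient library 4 (log2 fold changes 0.07 to 0.14, adjusted p 0.052 to 0.09), and with scaling by library size alone (0.11, adjusted p = 0.10). Without control library 1 the log2 fold change was 0.07, and that library held the lowest Clock level of the 12.

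**Figure D2:**
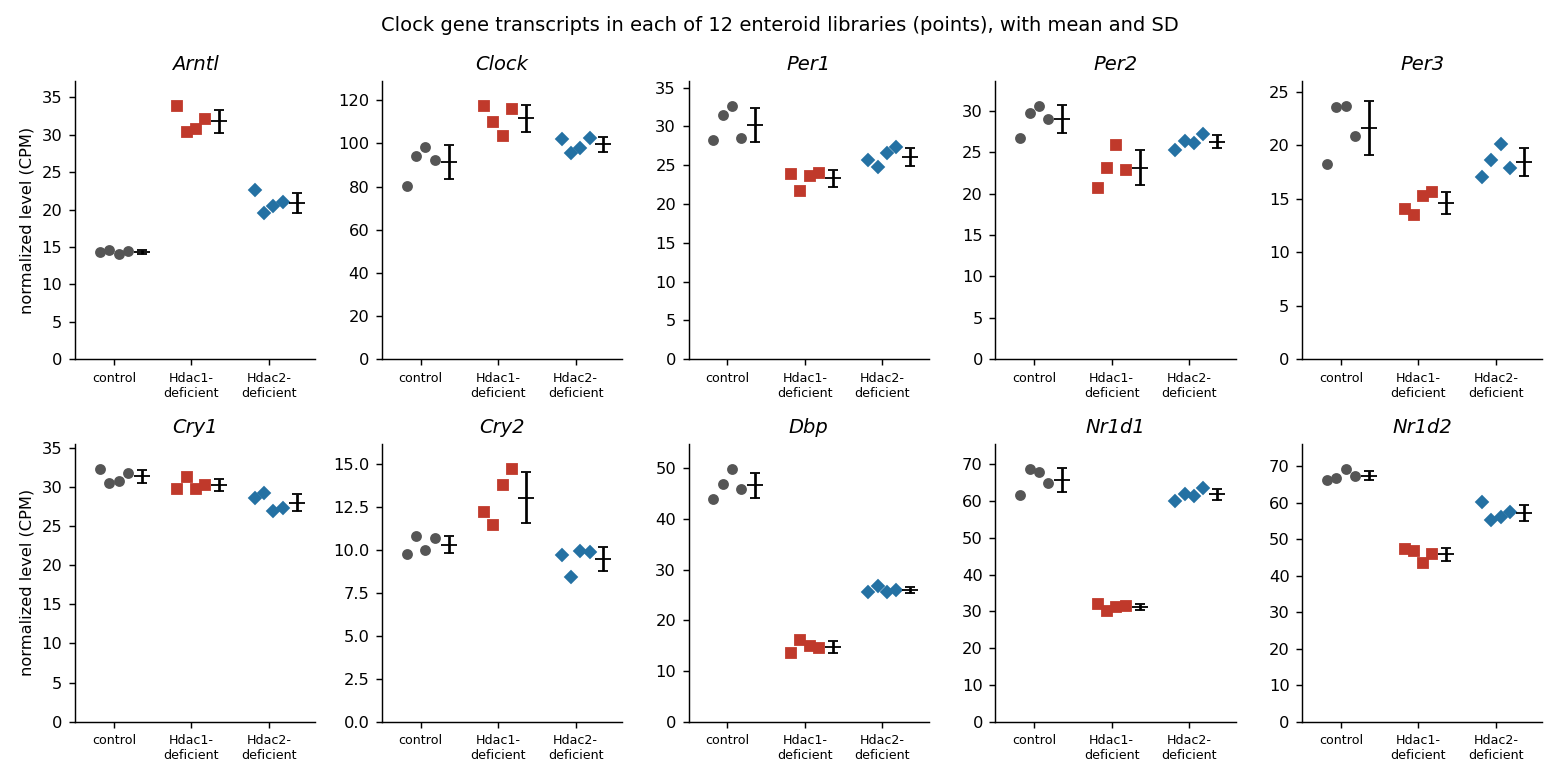
Level of each clock gene in CPM (y axis, from 0) in every library of the 3 groups, with each group's mean and SD (black) beside its 4 points. Arntl rises from control through Hdac2-deficient to Hdac1-deficient libraries, Dbp falls in the same order, and Nr1d1 is low in the 4 Hdac1-deficient libraries, at 30.2 to 32.1 CPM, but at 60.1 to 63.7 CPM in Hdac2-deficient libraries.

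Dbp encodes a PAR bZIP factor that drives daily rhythms of many liver and gut genes (ENSMUSG00000059824, chromosome 7, 45705088 to 45710203, plus strand). It was counted at 44.0, 46.9, 49.9 and 46.0 CPM in control, at 13.5, 16.2, 15.0 and 14.5 CPM in Hdac1-deficient and at 25.6, 26.8, 25.5 and 25.9 CPM in Hdac2-deficient libraries. All 3 groups stood apart, with Hdac2-deficient libraries again in the middle. Dbp fell 3.12-fold in Hdac1-deficient enteroids (log2 fold change -1.64, standard error 0.06, edgeR adjusted p = 2.8e-15) and 1.78-fold in Hdac2-deficient enteroids (log2 fold change -0.84, standard error 0.05, edgeR adjusted p = 1.6e-12). The mutants differed by 1.75-fold (edgeR adjusted p = 5.4e-12). These were the largest changes among the 10 genes in both comparisons with control, and 4.87% of all genes tested changed by a larger factor in the Hdac1 comparison. Sphk2, a sphingosine kinase gene on the opposite strand, shares 539 exon bases with Dbp, 18.01% of its exon length. Sphk2 was at 68.0, 69.2 and 75.3 CPM in control, Hdac1 and Hdac2 mutant enteroids, with log2 fold changes of 0.04 (edgeR adjusted p = 0.34) and 0.16 (edgeR adjusted p = 0.00066). The library kit keeps strand, but whether the counting used it is not given in the sources used here, so reads in the shared bases cannot be assigned with certainty.

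Nr1d1, which encodes REV-ERB alpha (ENSMUSG00000020889, chromosome 11, 98767932 to 98775333, minus strand), separated the mutants most clearly. Control libraries held 61.6, 68.7, 67.8 and 64.8 CPM, Hdac1-deficient libraries 32.1, 30.2, 31.1 and 31.4 CPM, and Hdac2-deficient libraries 60.1, 62.0, 61.5 and 63.7 CPM. The Hdac1-deficient libraries lay far below the rest, whereas Hdac2-deficient and control libraries overlapped. Nr1d1 fell 2.08-fold in Hdac1-deficient enteroids (log2 fold change -1.06, standard error 0.04, edgeR adjusted p = 5.0e-14). In Hdac2-deficient enteroids the log2 fold change of -0.08 did not pass the test (edgeR adjusted p = 0.097), with a 95% interval of -0.16 to 0.00. It passed without control library 1 (log2 fold change -0.11, adjusted p = 0.0081) and with scaling by library size alone (-0.11, adjusted p = 0.029). The mutants differed by 1.98-fold, with Hdac1-deficient enteroids lower (log2 difference -0.98, standard error 0.04, edgeR adjusted p = 1.4e-16), and 5.89% of all genes tested differed by a larger factor. Thra, the thyroid hormone receptor alpha gene on the opposite strand, shares 263 exon bases with Nr1d1, 8.55% of its exon length. It fell in both mutants, from 127.0 CPM in control to 102.7 CPM when Hdac1 was deficient and 99.8 CPM when Hdac2 was deficient, and the mutants differed by a log2 difference of 0.04 that did not pass the test (edgeR adjusted p = 0.34).

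Nr1d2, the gene of REV-ERB beta (ENSMUSG00000021775, chromosome 14, 18204054 to 18239127, minus strand), fell in both mutants. It was counted at 66.3, 66.7, 69.3 and 67.4 CPM in control, at 47.4, 46.8, 43.4 and 45.9 CPM in Hdac1-deficient and at 60.1, 55.3, 56.0 and 57.5 CPM in Hdac2-deficient libraries. The 3 groups did not overlap, with the Hdac2-deficient libraries between the others. The log2 fold change was -0.54 ± 0.04 (SE) in Hdac1-deficient enteroids (edgeR adjusted p = 2.8e-10) and -0.22 ± 0.04 in Hdac2-deficient enteroids (edgeR adjusted p = 2.2e-05). The direct log2 difference was -0.32 ± 0.04 (edgeR adjusted p = 1.7e-07).

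The Per genes encode repressors of the ARNTL and CLOCK pair, and all 3 were lower in both mutants. Per3 (ENSMUSG00000028957, chromosome 4, 151003652 to 151044665, minus strand) fell most of the 3 in Hdac1-deficient enteroids. It was counted at 18.3, 23.6, 23.7 and 20.9 CPM in control, at 14.03, 13.4, 15.2 and 15.6 CPM in Hdac1-deficient and at 17.0, 18.6, 20.1 and 17.9 CPM in Hdac2-deficient libraries. Control library 1 lay inside the range of the Hdac2-deficient libraries. The log2 fold change was -0.55 ± 0.08 (SE) in Hdac1-deficient enteroids (edgeR adjusted p = 5.5e-06) and -0.22 ± 0.08 in Hdac2-deficient enteroids (edgeR adjusted p = 0.019), with a direct difference of -0.33 ± 0.08 (edgeR adjusted p = 0.0013). Camta1, which overlaps Per3 on the same strand with no shared exon base, had log2 fold changes of -0.27 and -0.42.

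Per1 (ENSMUSG00000020893, chromosome 11, 69095217 to 69109960, plus strand), a member that also responds quickly to hormones and cAMP, was at 28.2 to 32.6 CPM in control libraries, 21.7 to 24.04 CPM in Hdac1-deficient and 24.8 to 27.4 CPM in Hdac2-deficient libraries. These 3 ranges did not overlap. Per1 changed by -0.36 ± 0.06 on the log2 scale in Hdac1-deficient enteroids (edgeR adjusted p = 1.0e-05) and by -0.20 ± 0.05 in Hdac2-deficient enteroids (edgeR adjusted p = 0.0025). Per2 (ENSMUSG00000055866, chromosome 1, 91415982 to 91459324, minus strand), whose loss disturbs daily rhythms in mice, was at 26.7 to 30.6, 20.7 to 25.9 and 25.3 to 27.2 CPM in the same order. Hdac1-deficient libraries lay below control and reached into the Hdac2-deficient range. Its log2 fold changes were -0.31 ± 0.06 (edgeR adjusted p = 0.00024) and -0.13 ± 0.05 (edgeR adjusted p = 0.028).

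The smaller Per changes depended on single libraries. In Hdac2-deficient enteroids Per2 lost its call without control library 2, control library 3, Hdac2-deficient library 1 or Hdac2-deficient library 3 (log2 fold changes -0.13 to -0.11, adjusted p 0.053 to 0.09) and by DESeq2 (-0.13, adjusted p = 0.061). Per3 lost it without control library 2, control library 3 or Hdac2-deficient library 1 (log2 fold changes -0.18 in each, adjusted p 0.053 to 0.071). The direct difference between the mutants was -0.16 ± 0.05 for Per1 (edgeR adjusted p = 0.018) and -0.18 ± 0.06 for Per2 (edgeR adjusted p = 0.016). The Per1 difference no longer passed without Hdac1-deficient library 2 (-0.12, adjusted p = 0.098), without Hdac2-deficient library 4 (-0.14, adjusted p = 0.069) or with scaling by library size alone (-0.13, adjusted p = 0.057). The Per2 difference no longer passed without Hdac1-deficient library 1 (-0.13, adjusted p = 0.084), without Hdac2-deficient library 4 (-0.16, adjusted p = 0.054) or with scaling by library size alone (-0.15, adjusted p = 0.053). All 3 Per genes kept their calls in Hdac1-deficient against control enteroids under every alternative run.

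The Cry genes encode the cryptochromes, which bind PER proteins in the repressor complex, and they went different ways. Cry2 (ENSMUSG00000068742, chromosome 2, 92403646 to 92434043, minus strand) was counted at 9.76, 10.8, 10.02 and 10.7 CPM in control, at 12.2, 11.46, 13.8 and 14.7 CPM in Hdac1-deficient and at 9.70, 8.44, 9.92 and 9.89 CPM in Hdac2-deficient libraries. Hdac1-deficient libraries lay above all others, with the widest spread of the 3 groups, and Hdac2-deficient libraries overlapped control at its lower end. Cry2 rose by 0.36 ± 0.08 on the log2 scale (SE) in Hdac1-deficient enteroids (edgeR adjusted p = 0.00062). When Hdac2 was deficient its log2 fold change of -0.11 did not pass (edgeR adjusted p = 0.21, 95% interval -0.26 to 0.04), and the mutants differed by 0.46 ± 0.08 (edgeR adjusted p = 3.4e-05). Cry1 (ENSMUSG00000020038, chromosome 10, 85131700 to 85185064, minus strand) was at 30.4 to 32.3 CPM in control libraries, 29.7 to 31.3 CPM in Hdac1-deficient and 26.9 to 29.2 CPM in Hdac2-deficient libraries. Hdac2-deficient libraries lay below all others and the remaining groups overlapped. The log2 fold change of Cry1 was -0.04 in Hdac1-deficient enteroids (edgeR adjusted p = 0.49, 95% interval -0.12 to 0.05) and -0.15 ± 0.05 in Hdac2-deficient enteroids (edgeR adjusted p = 0.0076). The direct difference of 0.11 ± 0.05 only just passed (edgeR adjusted p = 0.046). It was lost by DESeq2 (adjusted p = 0.08), without the filter on low counts (adjusted p = 0.063), and without any single one of Hdac1-deficient libraries 2, 3 and 4, Hdac2-deficient libraries 1, 3 and 4 and control library 4, with log2 differences of 0.09 to 0.12 and adjusted p of 0.051 to 0.12.

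Arntl was set against Dbp and Nr1d1 within each library, as the log2 ratio of Arntl to Dbp counts and of Arntl to Nr1d1 counts. This measure needs no scaling between libraries and carries the changes already given. Not every gene driven by ARNTL and CLOCK moved opposite to Arntl. In Hdac1-deficient enteroids Cry2 rose (log2 fold change 0.36) and Cry1 did not pass, and in Hdac2-deficient enteroids Nr1d1 did not pass. For Dbp the ratio was -1.62, -1.69, -1.83 and -1.67 in control, 1.33, 0.91, 1.04 and 1.15 in Hdac1-deficient and -0.18, -0.46, -0.31 and -0.31 in Hdac2-deficient libraries. Counts of Arntl, with no correction for length, were thus below those of Dbp in every control and Hdac2-deficient library and above them in every Hdac1-deficient library. The mean was -1.70 ± 0.09 (SD, n = 4) in control, 1.11 ± 0.18 when Hdac1 was deficient and -0.31 ± 0.12 when Hdac2 was deficient. For Nr1d1 the ratio was -2.20 ± 0.08 in control, then 0.02 ± 0.04 and -1.57 ± 0.11 in the Hdac1 and Hdac2 mutants. The groups did not overlap for either ratio. As Dbp and Nr1d1 peak in rodent tissues when Arntl is low, such ratios also depend on the time of lysis. That time is not given, so its part here was not tested and cannot be told apart from genotype.

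**Figure D3:**
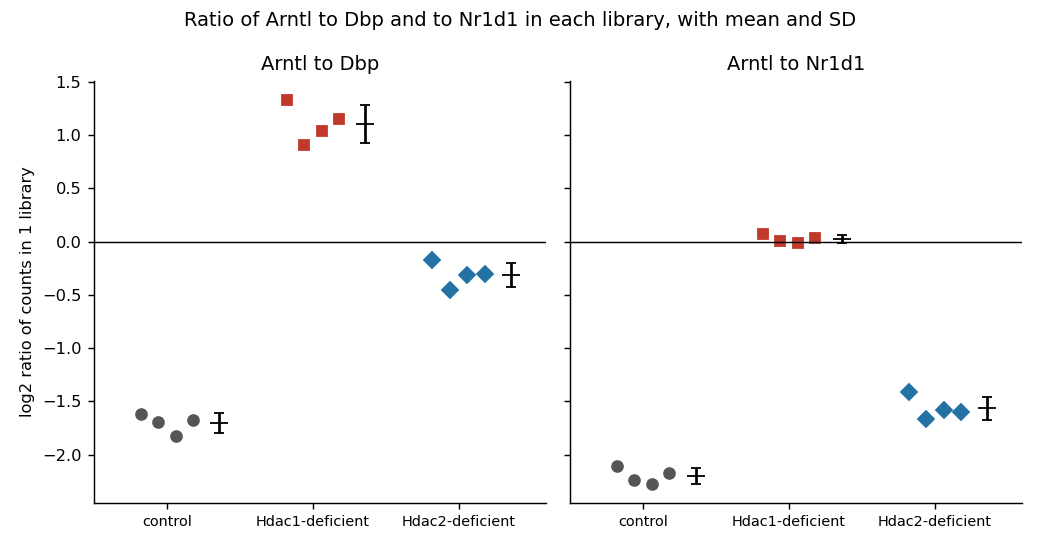
Log2 ratio of Arntl counts to Dbp counts (left) and to Nr1d1 counts (right) in each library of the 3 groups, with mean and SD in black beside the 4 points. For Dbp the groups lie at -1.83 to -1.62 (control), 0.91 to 1.33 (Hdac1-deficient) and -0.46 to -0.18 (Hdac2-deficient).

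Levels of different genes were compared per kilobase of merged exon (CPM per kb). Merged exons join all annotated transcripts of a gene, so this length need not be that of the transcripts present. The order between genes depends on that choice, and overlap between libraries does not measure it. Dbp and Nr1d1 also share exon bases with genes on the opposite strand, as given above. On the opposite strand, Cry2 shares 295 exon bases (4.67%) with D930015M05Rik and Arntl 33 with Gm45355. Neither of these was among the genes counted in all 12 libraries. Ube2n-ps1 and Gm43658 overlap Clock on the same strand with no shared exon base. In control enteroids the order was Nr1d1 (21.4), Dbp (15.6), Nr1d2 (12.5), Cry1 (9.38), Clock (6.65), Per1 (5.36), Per2 (4.95), Per3 (2.25), Arntl (1.90) and Cry2 (1.63), as means of 4 libraries. Neighbours in that order overlapped over libraries only for Per1 with Per2 and for Per3 with Arntl. In Hdac1-deficient enteroids the order became Nr1d1 (10.2), Cry1 (9.04), Nr1d2 (8.48), Clock (8.13), Dbp (4.94), Arntl (4.22), Per1 (4.14), Per2 (3.95), Cry2 (2.06) and Per3 (1.52). There Nr1d2 overlapped Clock, and Arntl overlapped Per1, which overlapped Per2. Dbp thus went from the second rank to the fifth, and Arntl from the ninth to the sixth. In Hdac2-deficient enteroids Nr1d1 (20.1), Nr1d2 (10.6), Dbp (8.67), Cry1 (8.37), Clock (7.25), Per1 (4.64), Per2 (4.49), Arntl (2.78), Per3 (1.92) and Cry2 (1.501) followed each other, with overlap between Dbp and Cry1 and between Per1 and Per2.

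**Figure D4:**
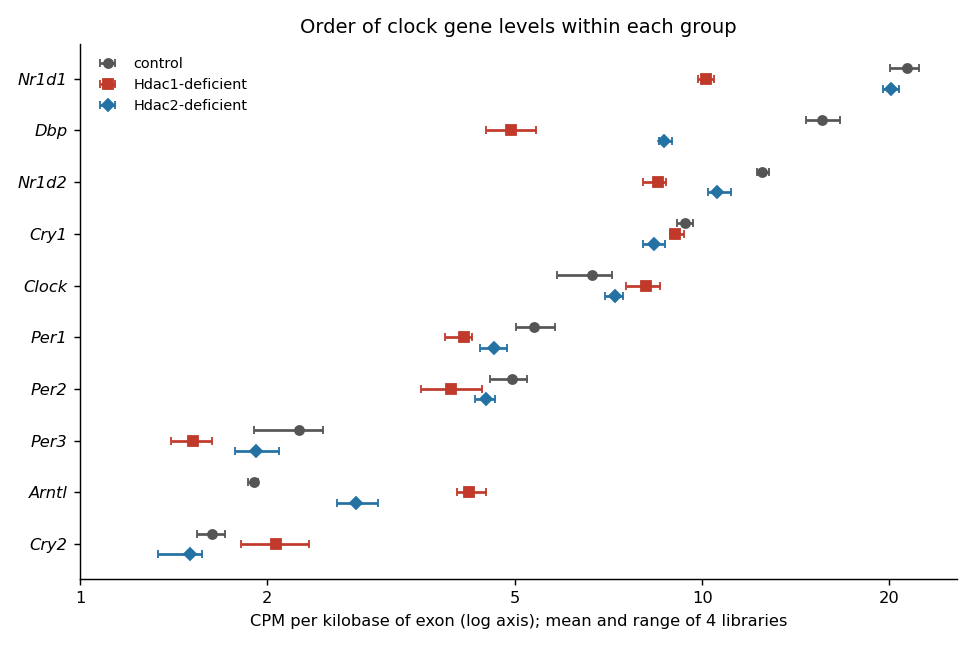
Level of each clock gene per kilobase of exon (x axis, log scale, CPM per kb; mean and range of 4 libraries) in the 3 groups, with genes in the order of their control means. From control through Hdac2-deficient to Hdac1-deficient enteroids Dbp falls from 15.6 to 8.67 and 4.94, and Arntl rises from 1.90 to 2.78 and 4.22.

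Other transcription factors of the clock formed a list of 10 genes, of which 8 were tested in the Hdac1 comparison, 7 in the Hdac2 comparison and 8 in the direct one. Bhlhe41 and Rorb were tested in none. Arntl2, a paralog of Arntl, was too low for the Hdac2 comparison and passed the filter on low counts only through the Hdac1-deficient libraries, where it is high, so its values are a description with no test. It was at 0.134 to 0.248 CPM in control (at most 7 counts in a library), 1.75 to 2.33 CPM in Hdac1-deficient and 0.221 to 0.484 CPM in Hdac2-deficient libraries. Of the 7 factors tested in every comparison, 2 rose, 3 fell and 2 did not pass in Hdac1-deficient enteroids, where 32.7% and 31.9% of all genes tested were called in these directions, with a median log2 fold change of -0.12 against 0.00 over all genes tested. Ciart, an E-box-driven repressor of the loop also called Chrono, fell from 8.05 CPM to 3.98 CPM when Hdac1 was deficient and to 6.44 CPM when Hdac2 was deficient (log2 fold changes -1.001, edgeR adjusted p = 1.1e-08, and -0.31, edgeR adjusted p = 0.0027). Ciart passed the 2-fold limit narrowly, and its log2 fold change lay between -1.06 and -0.96 over the alternatives. The remaining genes of these counts were named after their values were seen.

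Both that rose in Hdac1-deficient enteroids also rose in Hdac2-deficient ones. Nfil3, the repressor that opposes DBP on D-boxes, had log2 fold changes of 0.59 and 0.48 (edgeR adjusted p = 2.0e-06 and 2.8e-05). Npas2, a paralog of Clock that can stand in for it, had log2 fold changes of 0.31 and 0.43 (edgeR adjusted p = 7.0e-05 and 1.4e-07). Tef, a PAR bZIP relative of Dbp, fell by 0.65 on the log2 scale in Hdac1-deficient enteroids (edgeR adjusted p = 2.4e-11), against a log2 fold change of -0.02 that did not pass in Hdac2-deficient ones (edgeR adjusted p = 0.69), with a direct difference of -0.64 (edgeR adjusted p = 2.3e-13). Bhlhe40, an E-box-binding repressor, fell by 0.47 in Hdac1-deficient enteroids (edgeR adjusted p = 3.3e-11) and rose by 0.07 in Hdac2-deficient ones (edgeR adjusted p = 0.048), with a direct difference of -0.54 (edgeR adjusted p = 4.0e-14). The small rise of Bhlhe40 in Hdac2-deficient enteroids was lost without any single control library, without Hdac2-deficient library 2, 3 or 4, by DESeq2 and with other scalings or no filter (log2 fold changes 0.04 to 0.07, adjusted p 0.051 to 0.27). In Hdac2-deficient enteroids 3 of the 7 rose, 1 fell and 3 did not pass (31.4% and 30.9% of all genes tested), with a median log2 fold change of 0.07. In the direct comparison 3 of the 7 were lower in Hdac1-deficient enteroids, Ciart, Tef and Bhlhe40 (23.7% of all genes tested), and the other 4 did not pass, though Npas2 passed as lower without Hdac1-deficient library 1 (-0.14, adjusted p = 0.036). Rora and Hlf lay between 0.378 and 0.520 CPM in the 3 groups, and changes of theirs were not detectable at this depth.

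**Figure D5:**
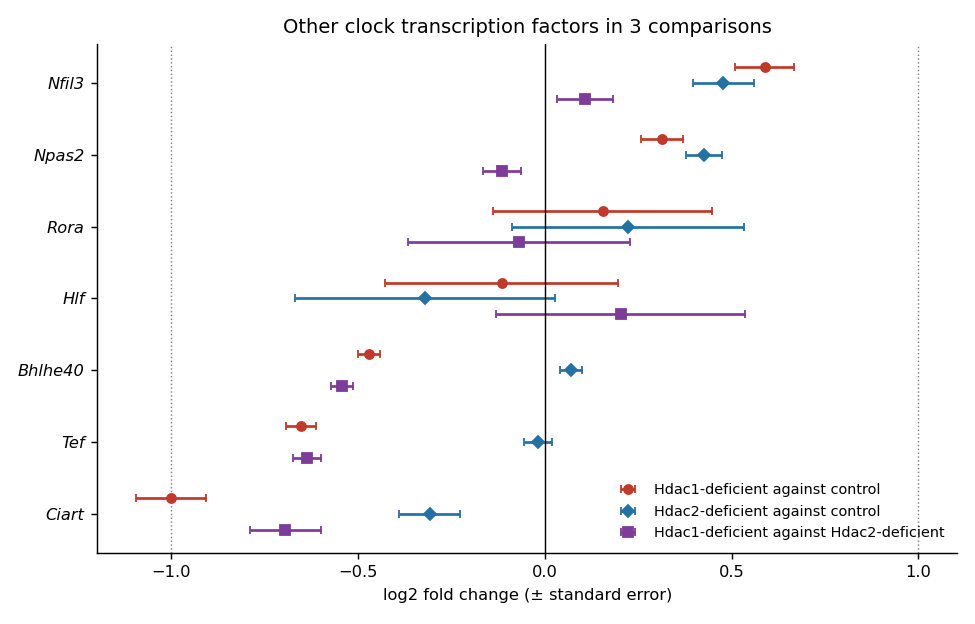
Log2 fold change (x axis, ± standard error) of the 7 other clock transcription factors tested in every comparison, with dotted lines at a 2-fold change. Nfil3 and Npas2 lie above 0 in both mutants, and Tef and Bhlhe40 lie at -0.65 and -0.47 in the Hdac1 comparison beside -0.02 and 0.07 in the Hdac2 comparison.

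The 13 kinases and ubiquitin ligases listed act on PER, CRY and other clock proteins. In Hdac1-deficient enteroids 2 rose, where 32.7% of all genes tested were called higher, 6 fell, where 31.9% were called lower, and 5 did not pass (median log2 fold change -0.09). In Hdac2-deficient enteroids 3 rose (31.4% of all genes), 3 fell (30.9%) and 7 did not pass (median -0.01). Between the mutants 1 was higher (22.3% of all genes), 5 were lower (23.7%) and 7 did not pass (median -0.05). Without control library 1, 5 rather than 3 fell in Hdac2-deficient enteroids. Btrc, a ligase subunit that binds phosphorylated PER, had log2 fold changes of -0.27 and -0.69 (edgeR adjusted p = 0.0004 and 3.9e-09). Csnk2a2, a catalytic subunit of casein kinase II, fell by 0.22 in Hdac1-deficient enteroids (edgeR adjusted p = 0.00041), and its log2 fold change of -0.0035 did not pass when Hdac2 was deficient (edgeR adjusted p = 0.96). Prkaa2, an AMP-activated kinase subunit, rose by 0.53 in Hdac2-deficient enteroids (edgeR adjusted p = 5.7e-09), with a log2 fold change of -0.02 in Hdac1-deficient ones (edgeR adjusted p = 0.72).

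Of 16 corepressors and coactivators of the loop, 3 rose, 6 fell and 7 did not pass in Hdac1-deficient enteroids (median log2 fold change -0.01), beside 32.7% and 31.9% of all genes called higher and lower. In Hdac2-deficient enteroids 3 rose, 7 fell and 6 did not pass (median -0.09), beside 31.4% and 30.9%. Between the mutants 3 were higher, 4 lower and 9 did not pass (median 0.08), beside 22.3% and 23.7%, counts that hung on scaling and on single libraries. Only 1 was higher without Hdac1-deficient library 1 or 3 or Hdac2-deficient library 3 or 4, 5 were higher without control library 1 or with the mutant libraries alone, and 9 were higher and 2 lower with scaling by library size alone. Timeless, named after the fly clock gene and best known for its part in DNA replication, fell in both mutants (log2 fold changes -0.42 and -0.56, edgeR adjusted p = 9.2e-08 and 1.2e-10). Ep300, an acetyltransferase recruited by CLOCK and ARNTL, rose by 0.35 in Hdac2-deficient enteroids (edgeR adjusted p = 0.0003), against a log2 fold change of 0.07 in Hdac1-deficient ones (edgeR adjusted p = 0.27). Tbl1xr1, an NCoR complex subunit, rose by 0.27 in Hdac2-deficient enteroids (edgeR adjusted p = 2.0e-06), against a log2 fold change of -0.05 in Hdac1-deficient ones (edgeR adjusted p = 0.29). Hdac3 and Ncor1, the partners of the REV-ERB receptors, were looked at after their values were seen. Hdac3 fell in both mutants (log2 fold changes -0.32 and -0.23, edgeR adjusted p = 3.0e-08 and 9.3e-07), and Ncor1 had log2 fold changes of 0.09 and 0.08 that did not pass (edgeR adjusted p = 0.26 and 0.20).

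Of 20 genes with known daily rhythms in gut or liver, 9 rose, 6 fell and 5 did not pass in Hdac1-deficient enteroids (median log2 fold change 0.06), where 32.7% and 31.9% of all genes tested were called in these directions. In Hdac2-deficient enteroids 13 rose, 4 fell and 3 did not pass (median 0.30), where 31.4% and 30.9% of all genes did. Between the mutants 7 were higher in Hdac1-deficient enteroids, 11 lower and 2 did not pass (median -0.17), where 22.3% and 23.7% of all genes were called. Slc2a5, the fructose transporter, rose from 122.2 CPM in control to 263.1 CPM when Hdac1 was deficient (log2 fold change 1.12, edgeR adjusted p = 1.7e-07) and to 208.0 CPM when Hdac2 was deficient (0.78, edgeR adjusted p = 2.0e-05). Abcc2, an apical exporter of conjugates, fell from 321.5 CPM to 219.1 CPM (-0.54, edgeR adjusted p = 0.00014) and 134.0 CPM (-1.25, edgeR adjusted p = 3.0e-11). Pdk4, a brake on glucose oxidation, was near the limit of counting at 0.508, 0.269 and 0.917 CPM. Its Hdac1-deficient libraries held at most 10 counts, and it passed the filter on low counts through groups where it was higher. Its calls enter the counts above, but its values are a description with no test.

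Some further output genes were named after their values were seen. The sugar transporters Slc2a2 (log2 fold changes 0.90 and 0.61) and Slc5a1 (0.76 and 0.48) and the peptide transporter Slc15a1 (0.66 and 0.18) rose in both mutants, like Slc2a5. These are genes of mature enterocytes, and Slc5a1 is also among the 5 enterocyte markers whose sums were higher in both mutants, as given above. Their part in these changes was not tested. Klf9, Fkbp5 and Tsc22d3 had larger log2 fold changes when Hdac2 than when Hdac1 was deficient (0.92 against 0.50, 0.61 against 0.47 and 0.36 against 0.25). The direct difference passed for Klf9 (edgeR adjusted p = 3.4e-07) and Fkbp5 (edgeR adjusted p = 0.017) and not for Tsc22d3 (edgeR adjusted p = 0.07). The Fkbp5 difference was lost without Hdac1-deficient library 1 (adjusted p = 0.071), without Hdac2-deficient library 3 (adjusted p = 0.066) or with scaling by library size alone (adjusted p = 0.062), and that of Tsc22d3 passed without Hdac1-deficient library 4 (adjusted p = 0.0097) or Hdac2-deficient library 2 (adjusted p = 0.014). Usp2, a robustly rhythmic E-box target elsewhere, was at 6.40, 6.38 and 6.05 CPM and passed in none of the comparisons (edgeR adjusted p = 0.87, 0.64 and 0.60).

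Genes with the pattern most like Arntl over the 12 libraries were found among 11409 genes by the root mean square difference of log2 CPM centred on each gene's mean. The 5 closest were Ypel2 (0.05), Nrg4 (0.06), Mov10 (0.06), Kcnk5 (0.07) and Cyp4v3 (0.07), against a median of 0.50 over all genes. They had log2 fold changes of 1.08 to 1.16 when Hdac1 was deficient and of 0.52 to 0.62 when Hdac2 was deficient. For Dbp the 5 closest were Phgdh (0.10), Sema7a (0.10), Hps1 (0.11), Creb3l1 (0.12) and Psat1 (0.15), against a median of 0.68. No other clock gene was among the 5 of either list.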

How the data were processed

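RNA-Seq was done on 12 libraries of jejunal enteroids, grouped by the genotype in their labels. The authors sequenced paired reads of 100 nucleotides from poly(A) RNA and aligned them to GRCm38 with STAR (version 2.4.0f1 in the submitters' processing notes). The authors deposited whole-number counts of reads per gene without normalization, in 1 table per mutant with the same 4 control libraries, whose counts did not differ between the tables. The program that counted the reads, and its strand setting, are not given in the sources used here. The deposited tables also hold normalized values, fold changes and p-values of the authors' own comparisons, and none of these were used.

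Counts were tested with edgeR (version 4.0.16, under R 4.3.3), using its quasi-likelihood F test, TMM scaling and the filterByExpr filter, with Benjamini-Hochberg adjustment over all genes tested. The comparisons with control used fits of 8 libraries each, and that between the mutants a fit of 12. The call was an adjusted p of at most 0.05, and more than 2-fold where said. The standard error is the log2 fold change divided by the square root of F. The 95% intervals come from this error by the normal approximation and are somewhat narrower than the F test would give. All 3 comparisons share libraries, so their values are set side by side only. Depth was 20693200 to 30658628 counts, 3 counts are 0.0979 to 0.145 CPM, and such precision covers counting error only. Gene positions and exon lengths came from GENCODE release M21 on GRCm38. The fits were tested before use on simulated counts in which genes changed by more than 2-fold. Smaller changes, like most given here, were not simulated. Alternatives were other scalings, DESeq2 (version 1.42.0), other filters, the replicate block, other sets of libraries and each library left out. Python 3.11.15 was used for the tables and figures, with pandas 2.3.3 and matplotlib 3.10.9.

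The 10 genes and the lists of clock factors, kinases and ligases, cofactors, output genes and cell type markers were chosen with earlier results of these data known, and 2 genes of the lists are not reported here. The text names all 10, every gene of a list called by more than 2-fold in any comparison or else the 3 with the largest called changes, genes that overlap a member and the 5 most alike in pattern to Arntl and to Dbp. Any others are said to be named after their values were seen.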

Additional observations from a re-analysis of the deposited data

Results flagged for a closer look

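Cry2 in Hdac2-deficient library 2 stood apart from the other libraries of its group. It was counted there at 8.44 CPM, whereas the other 3 libraries lay between 9.70 and 9.92 CPM, so the gap was 0.849 of the whole range of the group, above Dixon's limit for 4 libraries. Such a gap was looked for in 30 groups of 4 values, and chance alone gives it in about 1 of 20.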

How the results depend on the processing

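Over the alternatives run, 460 of 490 log2 fold changes of the 10 genes kept their direction and their side of the threshold, 28 lost their call and 2 gained one, and none changed sign. All 30 lost or gained calls were in the Hdac2 and direct comparisons, for Clock, Per1, Per2, Per3, Cry1 and Nr1d1, and the cause was not tested. In Hdac2-deficient against control enteroids 2 genes were higher, but 1 with scaling by library size alone, and with each library left out 1 to 2 were higher and 4 to 7 lower, against 6 lower with all libraries. Between the mutants 3 to 4 were higher and 4 to 6 lower in this way, against 4 and 6. The same-numbered libraries of different groups share no stated origin (12 correlations of -0.163 to 0.211, 3 over 0.1, and 5 libraries closest to their own number). With the replicate number as a block, 3 genes were higher and 6 lower for Hdac1, 2 and 6 for Hdac2 and 4 and 6 between the mutants, so it moved no count of calls. For the genes that the naming rule took from the lists, 512 of 524 values kept direction and call in alternatives added after seeing the data. Among the rest, Prkaa2, which was not called in Hdac1-deficient enteroids, turned to 0.0087 without control library 2 (-0.0592 to 0.0087 over the libraries left out), Csnk2a2, not called in Hdac2-deficient enteroids, lay between -0.0569 and 0.0402 over the libraries left out (above 0 without Hdac2-deficient library 1 or 4 or control library 1 or 2), Pdk4 lost its call against control without Hdac1-deficient library 3, without Hdac2-deficient library 3 or 4 or by DESeq2, and Timeless lost its direct difference without Hdac1-deficient library 1 or 2 or Hdac2-deficient library 1. Calls lost or gained for genes named after their values were seen stand beside them above. Rora, Hlf and Pdk4 had group means of 0.269 to 0.917 CPM, where depth limits what can be detected.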

Other observations

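Control library 1 held the lowest level of its group for 8 of the 10 clock genes, all except Arntl and Cry1, and control library 3 the highest for 6 of them. Arntl and Cry1 were lowest in control libraries 3 and 2. The labels give no batch or time that separates control library 1 from the others, and the calls that turn on it are given beside each gene above.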
